A study of Mus musculus with 24 samples.

Results

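The proteasome is the protease that breaks down ubiquitin-tagged proteins, and it does much of the protein breakdown of a wasting or fasting muscle. Its core particle is a barrel of stacked rings, in which outer α rings (the *Psma* genes) gate the entry and inner β rings (*Psmb*) hold the active sites. The regulatory particle caps the barrel, with a base of ATPases that unfold the substrate (*Psmc*) and a lid and base of other subunits (*Psmd*) that bind ubiquitin and take it off. Activators (*Psme*) can cap the core in its place, and chaperones (*Psmg*) help to build it.

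Members were chosen by name alone: every probe of the array whose gene name starts with *Psm*, then a letter from a to g, then a digit. This rule found 62 of the 55681 probes, for 49 gene names. A probe counted as measured where its Cy5 signal averaged over 2 times the local background across the arrays, which left 55 probes of 45 genes, out of 14312 probes and 9139 named genes of the whole array. Of these 45 genes, 17 code for the core particle, 20 for the regulatory particle or the chaperones of its base, and 8 for activators or chaperones of the core. The brightest probe stood for its gene.

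The RNA came from *M. gastrocnemius*, a calf muscle, of fasted male C57BL/6JOlaHsd mice that had eaten a purified diet with 40% of its energy as fat for 6 weeks. Before that they had received a diet with 10% of its energy as fat for 3 weeks, after arrival at the age of 10 weeks. For 6 h, 12 mice breathed air with 12% oxygen (Hypox) and 12 mice breathed air with 20.9% oxygen (Norm). Each array carried 1 mouse in the Cy5 channel and the reference, pooled from every sample, in the Cy3 channel, so that every level given below is a log2 ratio to that pool, and a fold change is the mean of Hypox minus the mean of Norm on the log2 scale. All 9 listed markers of skeletal muscle were measured, and 0 of them passed P = 0.05 between the groups. Of these markers 6 were lower and 3 higher in Hypox, with a median of -0.15 and a range from -0.58 (*Myh4*) to 0.09. The confidence interval lay within -0.5 and 0.5 for 1 of the 9, so equal muscle content was not shown. Their mean log2 ratio spanned -0.14 to 2.02 in Norm and -0.18 to 1.94 in Hypox.

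The 24 arrays lay on 6 slides with 2 arrays of each group per slide, and the share of spots whose Cy5 signal exceeded 2 times the background ranged from 7.26% to 36.7%. Array Hypox 2 stood apart from the others. Its log2 ratios spread over all genes with an SD of 0.64, against 0.27 to 0.49 on the other 23 arrays. The mean of the 20 regulatory particle genes was 0.36 on this array and between -0.28 and -0.02 on the others. Beside a number of the results, the value without this array is given too. Hypox 2 was singled out after its values had been seen, those of the proteasome genes among them. Each P without it is therefore a description and not a test planned beforehand. Among 5 markers of lung, the surfactant gene *Sftpc* passed the filter at 3.42 times the background, with its highest value, 2.57, on Hypox 8. It was well above background on 0 Norm and 4 Hypox arrays. Its difference of 0.81 thus rests on Norm readings near background and is not read as a result. Of the 6 endothelial markers 4 were measured, and 2 of them were higher at unadjusted P, *Cldn5* (0.30, P = 0.00446) and *Cdh5* (0.38, P = 0.00536). The other 2 did not pass, with *Egfl7* at 0.11 (P = 0.275) and *Kdr* on the lower side, at -0.15 (P = 0.234). The mean log2 ratio of the 4 measured endothelial markers spanned -0.34 to 0.22 in Norm and -0.26 to 0.17 in Hypox. Of the 5 markers of adipose tissue 4 were measured, and *Cfd* (-0.56, P = 0.0175) and *Adipoq* (-0.33, P = 0.0306) were lower. Their mean log2 ratio spanned -0.78 to 1.22 in Norm and -0.75 to -0.13 in Hypox. The part of these other cell types in the proteasome values was not tested. Less RNA of a gene per cell and fewer cells of a type cannot be told apart in such whole-muscle samples.

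No proteasome gene changed past the adjusted threshold when each gene was read by its brightest probe, and the differences were small in both directions. By limma's moderated test, 8 of the 45 genes (17.8%) passed an unadjusted P of 0.05, 5 of them higher and 3 lower in Hypox, whereas 12.2% of all genes did (7.12% higher and 5.03% lower). After adjustment over all genes, 0 of the 45 passed, against 0.339% of all genes, and the lowest adjusted P was 0.194. Fold changes ran from -0.30 to 0.34. The 95% confidence interval lay within -0.5 and 0.5 for 38 of the 45 genes. The core particle held 5 of the 8 genes, with 4 higher (*Psma6*, *Psma7*, *Psmb7*, *Psmb2*) and 1 lower (*Psmb3*). The regulatory particle held 1 of its 20 genes (*Psmd4*, lower). The remaining ones were the activator *Psme4*, lower, and the core chaperone *Psmg3*, higher. When arrays were weighted by their quality, which gave Hypox 2 a weight of 0.189 against 0.357 to 2.23 for the others, *Psma6* and *Psme4* passed the adjusted threshold (adjusted P = 0.0309 and 0.0453). A second probe of *Psme4* did pass the adjusted threshold and is described with the activators.

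**Figure D1:**
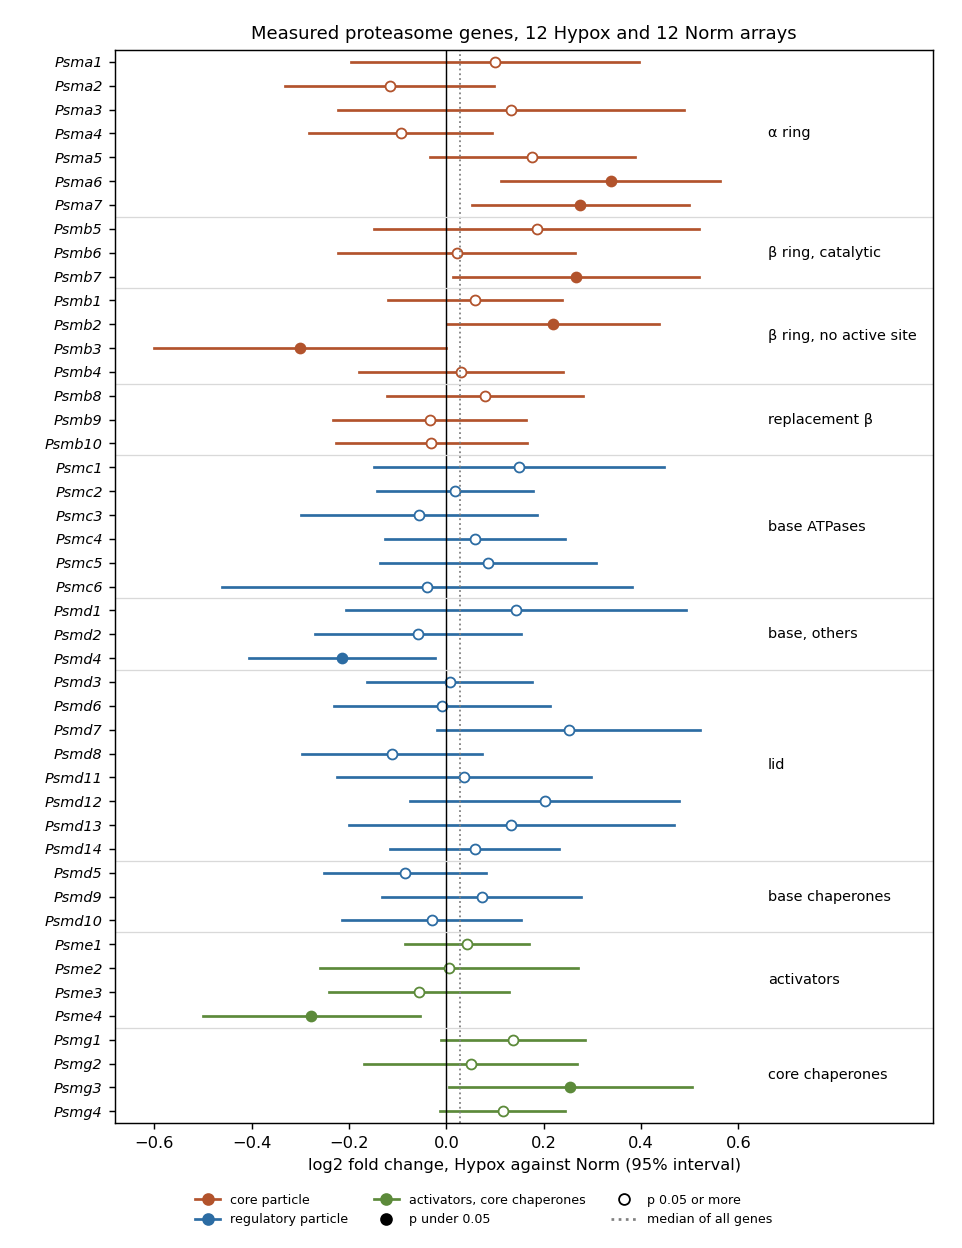
Log2 fold change of Hypox against Norm for each of the 45 measured proteasome genes, grouped by role, with the 95% confidence interval as a bar (12 arrays per group). Filled points have an unadjusted P under 0.05 and the dotted line is the median of all genes, 0.03. The filled points lie on both sides of 0, between -0.30 and 0.34.

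The median fold change was 0.08 over the 17 core genes, of which 12 were higher and 5 lower in Hypox. It was 0.03 over the 20 regulatory genes, of which 12 were higher and 8 lower. The median of all genes was 0.03, and 58.8% of them were higher. Within slides, the mean of the core genes was higher in Hypox on 5 of the 6 slides, by between -0.02 and 0.12, and the mean of the regulatory genes on 4 of the 6, by between -0.09 and 0.24. The value of 0.24 belongs to the slide that carried Hypox 2. Without Hypox 2, the core median was 0.05 and the regulatory median was -0.00077, with 11 of the 20 regulatory genes lower. Without that array, 6 of the 45 genes (13.3%) passed unadjusted P, against 12.5% of all genes. When arrays were only centred on their median in place of the loess, the median of all genes moved to 0.25. The core and regulatory medians lay 0.21 and 0.14 above it. In that setting 0 of the 45 genes passed unadjusted P, but only 0.350% of all genes did. In the deposited log2 values the core and regulatory medians lay 0.29 and 0.21 above the median of all genes, 0.03. Again 0 of the 45 genes passed unadjusted P, against 4.39% of the 11533 genes tested there.

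The heat map of single arrays shows each gene on each array. Hypox 2 was the highest of all 24 arrays for 7 of the 20 regulatory genes (35.0%) and for 4 of the 17 core genes (23.5%), and for 21.9% of all genes. Among the regulatory genes it reached 1.78 for *Psmc1*, 1.71 for *Psmd12*, 1.60 for *Psmd1*, 1.44 for *Psmd7*, 1.44 for *Psmd13* and 1.42 for *Psmc6*. Highest values of the other Hypox arrays were 0.35 for *Psmc1*, 0.38 for *Psmd12* and 0.02 for *Psmd13*. The same array was among the lowest for other members: it stood at -0.55 for *Psma5*, -0.53 for *Psma7*, -0.49 for *Psma6* and -0.84 for *Psmd8*, the lowest Hypox value of each. On this 1 array the 45 genes thus spanned -0.84 (*Psmd8*) to 1.86 (*Psmb5*).

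**Figure D2:**
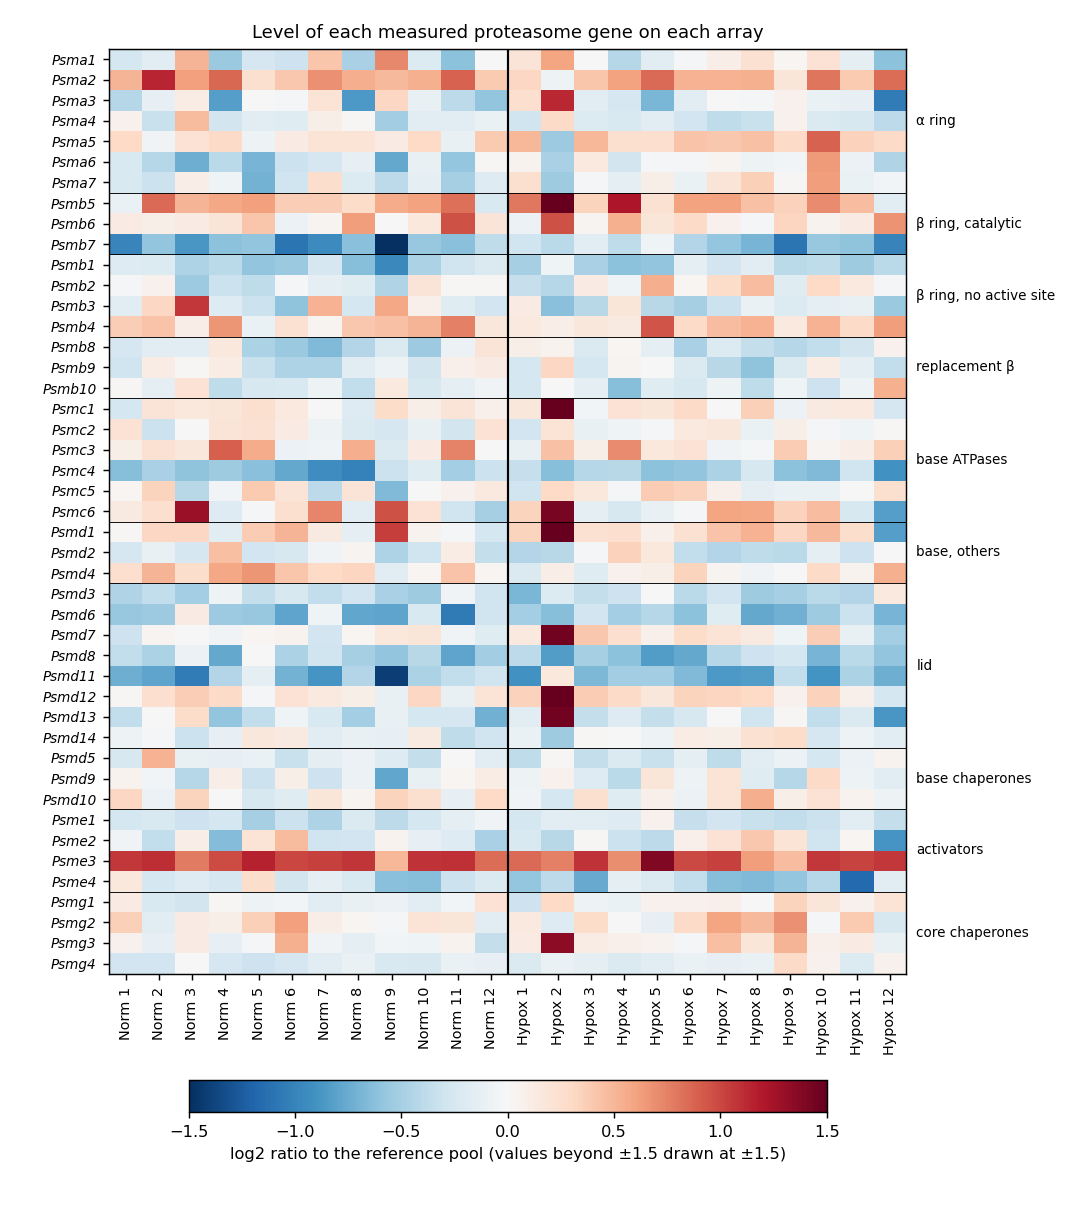
Log2 ratio to the reference pool (colour) of the 45 measured proteasome genes in rows, grouped by role, on the 24 arrays in columns, Norm left and Hypox right of the black line. The column of Hypox 2 holds the deepest red, with *Psmc1*, *Psmd1*, *Psmd7*, *Psmd12* and *Psmd13* at 1.44 or above.

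Of the 7 measured α ring genes, 5 were higher and 2 lower in Hypox, with a median of 0.13, or 0.05 without Hypox 2. *Psma6*, which had the smallest P of all measured proteasome genes, codes for an outer-ring subunit. Its level spanned -0.76 to 0.02 in Norm (median -0.36) and -0.49 to 0.64 in Hypox (median -0.04). The groups overlapped, but 4 of the 12 Hypox arrays lay above every Norm array. The fold change was 0.34 ± 0.11 (SE, a ratio of 1.26), with an interval from 0.11 to 0.56 (P = 0.00471, adjusted P = 0.194), and Hypox was higher on 5 of the 6 slides. *Psma6* was read by 1 probe of 60 bases on the plus strand, chr12:56511127-56511186 (mm9), shown because it carries the smallest P:
*Psma6*, transcript base 357: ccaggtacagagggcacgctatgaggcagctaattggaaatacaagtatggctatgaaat

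*Psma7*, another α subunit, spanned -0.71 to 0.27 in Norm (median -0.22) and -0.53 to 0.63 in Hypox (median 0.00). It was higher by 0.28 ± 0.11 (P = 0.0175, adjusted P = 0.279), with 2 Hypox arrays above every Norm array. Hypox 2 was the lowest Hypox array for both genes. Without it the fold changes were 0.38 for *Psma6* (P = 0.00150, adjusted P = 0.104) and 0.33 for *Psma7* (P = 0.00305, adjusted P = 0.143). *Psma5*, with 6 Hypox arrays above every Norm array and Hypox 2 below every one, moved from 0.18 (P = 0.0974) to 0.26 (P = 0.00223, adjusted P = 0.129) when Hypox 2 was left out. The other α subunits lay at 0.10 (*Psma1*), 0.13 (*Psma3*), -0.09 (*Psma4*) and -0.12 (*Psma2*), each with an interval that spans 0. Without Hypox 2 they lay at 0.05, 0.02, -0.14 and -0.06.

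**Figure D3:**
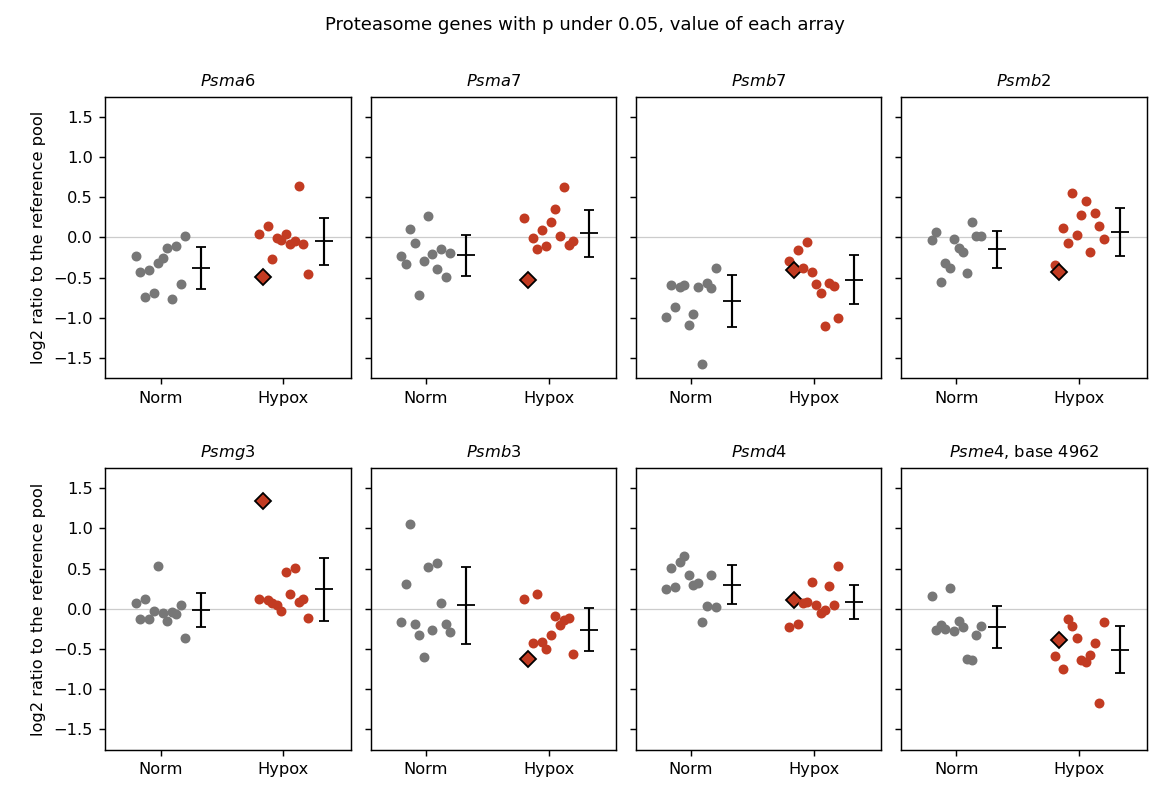
Log2 ratio to the reference pool of each array for the 8 proteasome genes with an unadjusted P under 0.05, with the mean and SD of the 12 arrays of a group as black bars. The diamond with a black rim is Hypox 2. The groups overlap for every gene. Hypox 2 lies at the bottom of the Hypox points for *Psma6*, *Psma7*, *Psmb2* and *Psmb3* and at the top for *Psmg3*, at 1.34.

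The proteolytic work is done by *Psmb5*, *Psmb6* and *Psmb7*, the chymotrypsin-like, caspase-like and trypsin-like subunits. *Psmb7* spanned -1.58 to -0.38 in Norm (median -0.63) and -1.10 to -0.06 in Hypox (median -0.50), with 3 Hypox arrays above every Norm array. It was higher in Hypox by 0.27 ± 0.12 (interval 0.01 to 0.52, P = 0.0391, adjusted P = 0.374), on 4 of the 6 slides. Norm 9 held the lowest value, and with single arrays left out the difference passed P = 0.05 in 13 of 24 fits. *Psmb5* spanned -0.23 to 0.85 in Norm (median 0.54) and -0.15 to 1.86 in Hypox (median 0.53), where Hypox 2 was the highest. Its difference was 0.19 ± 0.16 (interval -0.15 to 0.52, P = 0.264), and 0.07 without Hypox 2 (P = 0.586). *Psmb6* spanned -0.09 to 0.96 in Norm (median 0.14) and -0.08 to 0.96 in Hypox (median 0.15). Its groups lay on top of each other, with a difference of 0.02 ± 0.12 (interval -0.22 to 0.26, P = 0.860), and of -0.04 without Hypox 2.

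Interferon and inflammation exchange these subunits for *Psmb8*, *Psmb9* and *Psmb10*, which form the immunoproteasome and shape the peptides shown on MHC class I. None of the 3 passed unadjusted P. *Psmb8*, the replacement for *Psmb5*, spanned -0.66 to 0.20 in Norm (median -0.23) and -0.48 to 0.09 in Hypox (median -0.21), a difference of 0.08 ± 0.10 (interval -0.12 to 0.28, P = 0.424). *Psmb9*, the replacement for *Psmb6*, spanned -0.47 to 0.12 in Norm (median -0.11) and -0.61 to 0.31 in Hypox (median -0.22), a difference of -0.03 ± 0.10 (interval -0.23 to 0.16, P = 0.724), and of -0.08 without Hypox 2. *Psmb10*, the replacement for *Psmb7*, spanned -0.39 to 0.21 in Norm (median -0.14) and -0.64 to 0.53 in Hypox (median -0.16), a difference of -0.03 ± 0.10 (interval -0.23 to 0.17, P = 0.749). *Psmb8* and *Psmb9* were dim, with a Cy5 signal of 3.00 and 2.57 times the background, and of the 12 arrays of each group they were well above it on 7 Norm and 8 Hypox arrays (*Psmb8*) and on 7 of each (*Psmb9*). With the signals as the scanner software had processed them, *Psmb8* lay at 0.39 (P = 0.119) and *Psmb9* at -0.27 (P = 0.248), both outside the intervals above. Of the 12 immune cell markers 5 were measured, and 0 passed unadjusted P. Their mean log2 ratio spanned -0.34 to 0.10 in Norm and -0.51 to 0.22 in Hypox, while *Ptprc*, the common leukocyte antigen, did not pass the filter.

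**Figure D4:**
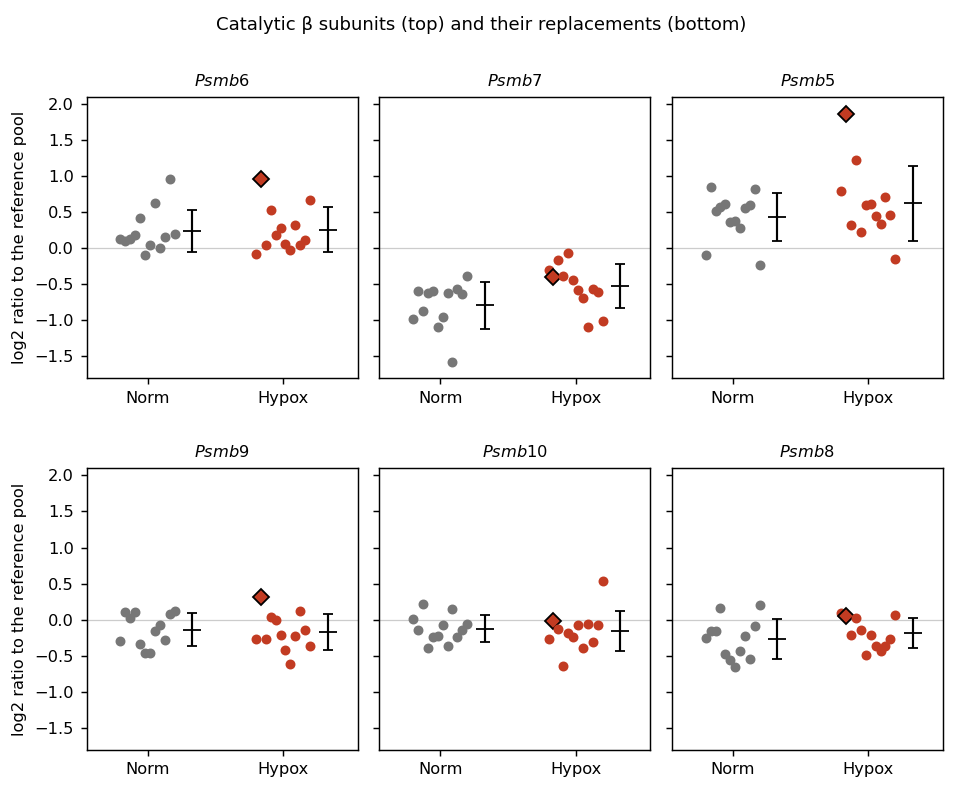
Log2 ratio to the reference pool of each array for the 3 catalytic β subunits (top) and, below each, the subunit that replaces it in the immunoproteasome, with the mean and SD of the 12 arrays of a group as black bars. The diamond is Hypox 2. Only the Hypox points of *Psmb7* lie visibly higher than those of Norm, by 0.27 on average.

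Catalytic subunits and their replacements are close relatives, so 1 pair of their probes was compared by sequence. Other pairs were not compared. The *Psmb5* probe at transcript base 607 (minus strand, chr14:55233161-55233220, mm9) and the probe of *Psmb8* (plus strand, chr17:34337771-34337830, mm9) were aligned to each other without gaps. In the best position they overlapped over 50 bases, of which 31 (62.0%) were identical and are shown in capitals:
*Psmb5*, transcript base 607: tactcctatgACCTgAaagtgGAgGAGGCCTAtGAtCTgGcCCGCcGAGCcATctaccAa
*Psmb8*, transcript base 856: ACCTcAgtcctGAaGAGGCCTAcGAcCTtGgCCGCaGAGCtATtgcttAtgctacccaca
*Psmb7*, transcript base 500: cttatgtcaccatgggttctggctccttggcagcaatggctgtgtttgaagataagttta
The probe of *Psmb7* was not aligned, and is shown because this catalytic subunit had a P under 0.05. It lies on the minus strand and spans chr2:38468966-38489385 (mm9), more than its 60 bases because it lies across spliced exons. The *Psmb5* probe at base 607 gave 0.23 (P = 0.167), with its highest value, 1.14, on Hypox 12, and 0.09 without that array. The brightest probe of *Psmb5* was highest on Hypox 2.

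Of the β subunits without an active site, *Psmb2* was higher by 0.22 ± 0.11 (P = 0.0495, adjusted P = 0.410) and *Psmb3* was lower, at -0.30 ± 0.15 (P = 0.0495, adjusted P = 0.410). *Psmb2* spanned -0.55 to 0.19 in Norm (median -0.08) and -0.43 to 0.55 in Hypox (median 0.08), with 4 Hypox arrays above every Norm array. *Psmb3* spanned -0.60 to 1.06 in Norm (median -0.17) and -0.63 to 0.18 in Hypox (median -0.26), and its Norm arrays spread with an SD of 0.48 against 0.26 in Hypox. With single arrays left out, each of these differences passed P = 0.05 in 11 of 24 fits. *Psmb3* was not lower with median centring (0.20) or in the deposited values (0.00739). *Psmb1* (0.06) and *Psmb4* (0.03) had intervals from -0.12 to 0.24 and from -0.18 to 0.24.

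In the regulatory particle, *Psmd4* was the 1 gene with an unadjusted P under 0.05 at its brightest probe. It codes for a receptor that holds the ubiquitin chain of a substrate. Its level spanned -0.16 to 0.66 in Norm (median 0.31) and -0.22 to 0.53 in Hypox (median 0.06), and 2 Hypox arrays lay below every Norm array. It was lower in Hypox on all 6 slides, by -0.21 ± 0.09 on average (interval -0.41 to -0.02, P = 0.0285, adjusted P = 0.339), and by -0.22 without Hypox 2 (P = 0.0316). The difference missed P = 0.05 when Norm 4, Norm 5, Hypox 1 or Hypox 3 was left out, and it was not lower with median centring (0.31) or in the deposited values (0.10).

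Read by their brightest probes, the 6 ATPases of the base lay between -0.06 (*Psmc3*) and 0.15 (*Psmc1*), with no P under 0.316. Their median was 0.04, or 0.0040 without Hypox 2. A second probe of *Psmc1* had a P of 0.0183 and is described with the probe pairs. *Psmd1* and *Psmd2*, the scaffolds of the base, lay at 0.14 and -0.06, or at 0.03 and -0.04 without Hypox 2. Of the 8 lid genes 6 were higher and 2 lower, but 4 were higher and 4 lower without Hypox 2. *Psmd7*, the partner of the deubiquitinating subunit, had the highest fold change of the regulatory particle, 0.25 ± 0.13 (interval -0.02 to 0.52, P = 0.0669). It spanned -0.31 to 0.18 in Norm (median 0.02) and -0.50 to 1.44 in Hypox (median 0.18), and 6 Hypox arrays lay above every Norm array. Without Hypox 2 its fold change was 0.14 (P = 0.126). *Psmd14*, the deubiquitinating subunit itself, lay at 0.06, and *Psmd8* at -0.11 ± 0.09 (P = 0.222), with Norm from -0.79 to -0.0039 (median -0.48) and Hypox from -0.84 to -0.27 (median -0.54). The chaperones that build the base lay at -0.09 (*Psmd5*), -0.03 (*Psmd10*) and 0.07 (*Psmd9*).

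Among the activators, *Psme4* was lower in Hypox at both of its probes. It codes for the single-chain cap PA200, known for its part in histone turnover. At the probe on transcript base 1428, levels spanned -0.37 to 0.18 in Norm (median -0.06) and -0.71 to -0.19 in Hypox (median -0.47). Of the 12 Hypox arrays, 8 lay below every Norm array, and Hypox was lower on all 6 slides, by between -0.52 and -0.23. The level fell by 0.36 ± 0.07 on the log2 scale (a ratio of 0.780, interval -0.50 to -0.22), which passed the adjusted threshold over the 14312 probes (P = 2.16e-05, adjusted P = 0.0157), as 0.985% of all probes did (0.741% in this direction). It was the only 1 of the 55 proteasome probes that did, while 9 of them (16.4%) passed unadjusted P, 6 higher and 3 lower, against 14.1% of all probes (7.5% higher and 6.57% lower). At base 4962, the brighter probe, levels spanned -0.64 to 0.26 in Norm (median -0.24) and -1.17 to -0.13 in Hypox (median -0.50). The difference there was -0.28 ± 0.11 (interval -0.50 to -0.05, P = 0.0167, adjusted P = 0.276 over the genes), with 4 Hypox arrays below every Norm array. It was -0.03 (P = 0.907) with median centring, -0.14 (P = 0.268) with the Cy5 channel alone and -0.24 (P = 0.114) in the deposited values. When single arrays were left out, the adjusted P of the first probe was at most 0.0343, and without Hypox 2 it was 0.0171. With the signals as the scanner software had processed them, with median centring, with the Cy5 channel alone and in the deposited log2 values, its adjusted P lay above 0.05, at 0.179, 0.760, 0.197 and 0.728, and its fold change was below 0 in each. Both probes were dim, at 3.65 and 6.35 times the background, and were well above it on 9 Norm and 10 Hypox arrays at base 1428 and on 10 and 11 at base 4962. They lie on the plus strand of chromosome 11, at chr11:30710953-30711012 and chr11:30756055-30756114 (mm9), and are shown because both read the lower level:
*Psme4*, transcript base 1428: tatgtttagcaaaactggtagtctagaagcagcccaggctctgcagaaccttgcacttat
*Psme4*, transcript base 4962: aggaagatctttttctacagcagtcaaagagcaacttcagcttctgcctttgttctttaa

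The other activators, *Psme1* and *Psme2* of the interferon-induced cap and *Psme3* of the nuclear one, lay at 0.04, 0.00 and -0.06, with *Psme1* between -0.09 and 0.17 at 95% confidence. The 4 chaperones of the core lay between 0.05 and 0.25. *Psmg3*, which with *Psmg4* helps to form the α ring, spanned -0.36 to 0.54 in Norm (median -0.04) and -0.11 to 1.34 in Hypox (median 0.11). It was higher by 0.25 ± 0.12 (P = 0.0456, adjusted P = 0.398) and on all 6 slides, and without Hypox 2, its highest array, by 0.15 (P = 0.0795). *Psmg1* (0.14, P = 0.0679), *Psmg4* (0.12, P = 0.0748) and *Psmg2* (0.05, P = 0.645) did not pass.

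Of the 45 genes, 10 had 2 measured probes, and for some of these the fold changes differed. The 2 probes of *Psma4* gave 0.18 (base 409, P = 0.323) and -0.09 (base 643, P = 0.316). At base 409 *Psma4* stood at 1.64 on Hypox 2, and without that array its difference was 0.03 (P = 0.783). Those of *Psmc3* gave 0.40 (base 1307, interval -0.03 to 0.83, P = 0.0704) and -0.06 (base 1565, P = 0.634). At base 1307 the levels of *Psmc3* spanned -0.99 to -0.26 in Norm and -1.18 to 1.52 in Hypox, where Hypox 6 (1.52) and Hypox 2 (1.13) stood far above the rest, and the difference was 0.24 without Hypox 6 and 0.28 without Hypox 2. *Psmc1* was higher by 0.37 (P = 0.0183, adjusted P = 0.242) at base 1210 and by 0.15 (P = 0.318) at base 1442, or by 0.24 (P = 0.0180) and 0.01 without Hypox 2. *Psme2* was higher by 0.22 (P = 0.0184, adjusted P = 0.242) at base 198 and lay at 0.00 at base 818 (P = 0.970). Probes of *Psma4*, *Psmc3* and *Psmc1*, which are among the genes whose 2 readings differ, are shown:
*Psma4*, transcript base 409: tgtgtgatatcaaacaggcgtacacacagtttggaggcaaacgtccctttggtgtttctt
*Psma4*, transcript base 643: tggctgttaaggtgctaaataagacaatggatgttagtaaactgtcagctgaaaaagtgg
*Psmc3*, transcript base 1307: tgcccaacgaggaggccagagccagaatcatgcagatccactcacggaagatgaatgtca
*Psmc1*, transcript base 1210: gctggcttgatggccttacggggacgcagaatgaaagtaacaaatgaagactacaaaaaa
The *Psma4* probes span chr9:54802741-54804087 and chr9:54804685-54805444, that of *Psmc3* lies at chr2:90898252-90898311 and that of *Psmc1* at chr12:101361283-101361342, each on the plus strand of mm9.

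Across the 24 arrays, with the group means taken off, the 2 probes of a gene correlated between -0.47 and 0.76 (Pearson's r), and 6 of the 10 correlations were above 0. With P from 100000 permutations, adjusted over the 10 pairs, 3 passed by r and 0 by Spearman's rho. The highest was *Psmc1* (r = 0.76, P = 0.00636, adjusted P = 0.0223, and rho = 0.14, P = 0.502, adjusted P = 0.529), and it rested on the extreme arrays, since r was -0.08 without the 2 arrays farthest from the median. Those of *Psma4* (r = 0.60, P = 0.00389, adjusted P = 0.0223, and rho = 0.31, P = 0.143, adjusted P = 0.419) and *Psmd12* (r = 0.56, P = 0.0067, adjusted P = 0.0223, and rho = 0.21, P = 0.318, adjusted P = 0.529) dropped to 0.40 and 0.18 in the same way. The 2 probes of *Psme4* gave r = 0.24 (P = 0.253, adjusted P = 0.361) and rho = 0.29 (P = 0.168, adjusted P = 0.419), and r = 0.02 without their 2 farthest arrays, and those of *Psme2* gave r = -0.47 (P = 0.0215, adjusted P = 0.0536) and rho = -0.50 (P = 0.0136, adjusted P = 0.0681), and r = -0.45 without the 2 farthest arrays. With slide means taken off too, r was 0.20 for *Psme4* and 0.82 for *Psmc1*. Within single slides, 4 arrays are too few for a value.

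**Figure D5:**
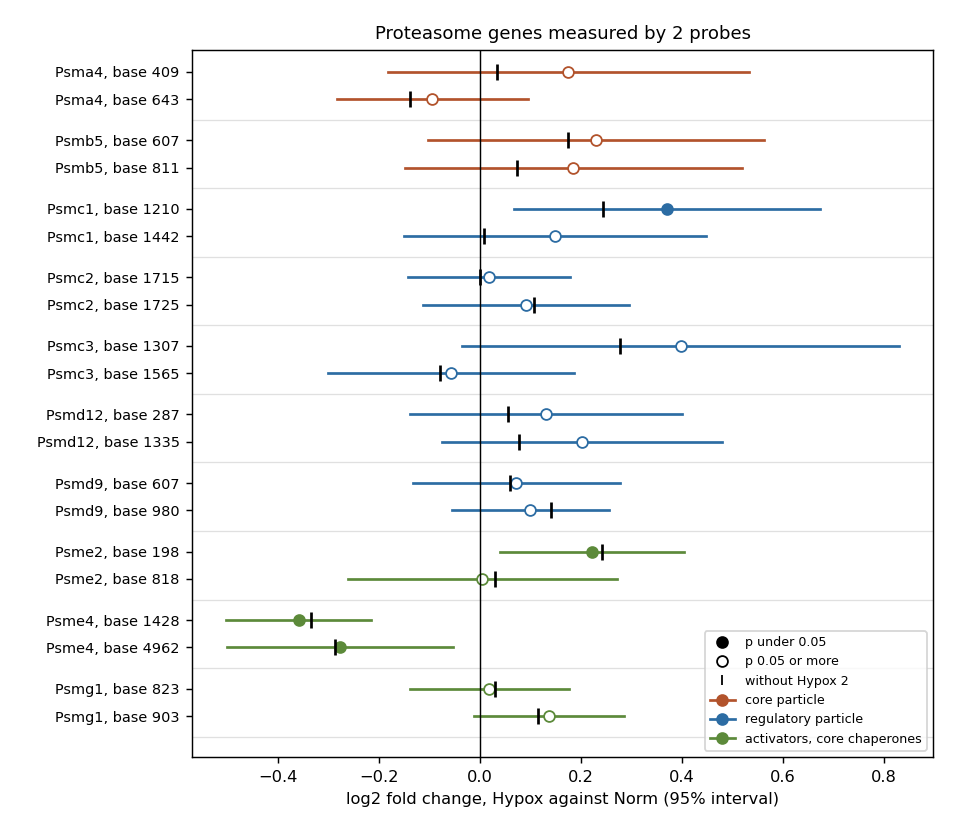
Log2 fold change of Hypox against Norm, with its 95% confidence interval, for both probes of the 10 proteasome genes that had 2 measured probes, labelled by their start in the transcript. Black ticks mark the fold change without Hypox 2, and filled points have an unadjusted P under 0.05. Both probes of *Psme4* lie below 0, at -0.36 and -0.28, while those of *Psmc3* lie at 0.40 and -0.06.

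Of the 49 genes of the rule, 4 were not measured by any probe. *Psma8* and *Psmb11*, which are used in testis and in the thymus, gave 1.11 and 1.13 times the background and were well above it on 0 arrays. *Psmf1*, an inhibitor of the core, gave 1.59, and *Psmc3ip*, a recombination factor that is no subunit but matches the rule, gave 1.46. Just inside the threshold were *Psmd10* (2.55), *Psmb9* (2.57) and *Psmb8* (3.00), and just outside it a second probe of *Psmd10* (1.91). Second probes of *Psmb9* and *Psme2* were not measured either.

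Around the proteasome, 50 further genes of the pathway were looked up and 41 were measured. Of these, 5 (12.2%) passed unadjusted P, 2 higher and 3 lower, a share equal to that of all genes, and 0 passed the adjusted threshold (lowest adjusted P 0.189). Among the 11 measured partners of the particle, *Sem1*, a small subunit of the lid that the name rule does not catch, was lower, at -0.47 ± 0.15 (P = 0.00394, adjusted P = 0.189), as was the ubiquitin ligase *Ube3a*, at -0.18 (P = 0.0457). With single arrays left out, the value of *Ube3a* passed P = 0.05 in 11 of 24 fits, and it lay at -0.02 (P = 0.916) with median centring, -0.13 (P = 0.272) with the Cy5 channel alone and -0.43 (P = 0.0933) with the processed signals. Among the 13 shuttle factors and partners of the p97 segregase, the stress-induced *Zfand2a* was higher by 0.23 (P = 0.00711, adjusted P = 0.216) and its relative *Zfand2b* by 0.24 (P = 0.0348). The value of *Zfand2b* passed P = 0.05 in 17 of the 24 fits with single arrays left out. *Nfe2l1*, the factor that drives the proteasome genes when the enzyme is short, lay at -0.06 (interval -0.29 to 0.18, P = 0.617), and its relative *Nfe2l2* at -0.26 (P = 0.0824), or at -0.50 (P = 0.0453) with the processed signals and -0.43 (P = 0.0273) with the Cy5 channel alone. Of the 8 measured genes of MHC class I presentation, *B2m*, the light chain of the complex, was lower, at -0.25 (P = 0.0390, adjusted P = 0.374). That of *B2m* passed P = 0.05 in 15 of the 24 fits with single arrays left out. With median centring *Sem1*, *B2m*, *Nfe2l1* and *Nfe2l2* lay above 0, between 0.05 and 0.16.

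The promoters were searched for the antioxidant response element TGACNNNGC, which *Nfe2l1* binds, on both strands of the 250 bases before the start (RefSeq, GRCm38.p6). Of the 38 measured proteasome genes with an entry, 5 (13.2%) held it, against 11.5% of the 27025 genes of the table. They were *Psmb5*, *Psmb6*, *Psmc6*, *Psmd9* and *Psmd12*, none of which passed unadjusted P. The CCAAT box was found in 13 of the 38 (34.2%), and in 37.5% of all genes. None of the 5 holders of TGACNNNGC also held CCAAT. Elements before or after this window were not searched.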

How the data were processed

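RNA of *M. gastrocnemius* was measured on 24 two-colour arrays, 12 Norm and 12 Hypox. The deposited scanner output holds spot intensities, with the mean signal and local background of both channels, from Agilent Feature Extraction 10.7.3.1, and the authors also deposited a table of log2 values normalized in their own software, with every column at one median and the scaling otherwise not given in the sources used here. Whether dyes were swapped was read from the descriptions (sample in Cy5, pool in Cy3), since the dye labels of Hypox 5 to 9 name other dyes.

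Intensities were corrected with normexp (offset 50) and log ratios normalized by loess within each array in limma 3.58.1 (R 4.3.3). Control spots and 7260 readings that the scanner software marked as outliers were left out, and 0 readings were saturated. Spots of a probe were averaged. Probes were kept with a mean Cy5 signal over 2 times the background and at most 4 missing arrays. Of the 55681 probes, a RefSeq accession named 27235, a symbol 3581 and an older symbol 565. The difference between Hypox and Norm was tested with limma (no block), P was adjusted by Benjamini-Hochberg over the 9139 genes, and the probes had a fit of their own. Each array is a separate mouse per the labels. Replicate numbers did not pair the samples, with 3 of 12 correlations over 0.1. The number of arrays limits the precision. The fit was tested on simulated data. A simulated log2 change of 0.25 passed the adjusted threshold for 14.9% of the changed genes. For a change of 0.5 the share was 68.7%, and for a change of 1 it was 100%.

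Members and gene lists were chosen with earlier results of these data known. Given in full were the catalytic subunits, their replacements and up to 5 members per direction with the smallest P, and in short the other members past P = 0.05, the extremes of each particle and genes whose probes differ. From the other lists up to 3 genes with the smallest P were named, with *Nfe2l1* added for its role and *Egfl7* to complete the measured endothelial markers. A gene of these lists is not reported here. Of the 3 red blood cell markers 2 were measured, and 0 passed P = 0.05. Positions are those of mm9 in the scanner output. Alternatives were other background and scaling choices, other filters, the mean of a gene's probes, blocks for slide or replicate number, array weights, the methods' t-test, the deposited values and leaving out each array, and, chosen after seeing the data, leaving out slide 1. The choice of Hypox 2 as the array whose removal is given throughout was also made after seeing the data.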

Additional observations from a re-analysis of the deposited data

How the results depend on the processing

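How many of the 45 proteasome genes passed unadjusted P, and the sign of small differences, depended most on how arrays were scaled. With median centring in place of loess, 0 genes were higher and 0 lower at unadjusted P (0 core, 0 regulatory, 0 around the proteasome), as 32 of all genes were called, against 1111 with loess. The median fold change was then 0.46 for the core and 0.39 for the regulatory particle, and signs turned for *Psma2* (0.40), *Psma4* (0.26), *Psmb10* (0.33), *Psmb3* (0.20), *Psmb9* (0.12), *Psmc3* (0.54), *Psmd4* (0.31), *Psmd8* (0.27), *B2m* (0.16), *Nfe2l1* (0.16), *Nfe2l2* (0.054) and *Sem1* (0.082). In the deposited log2 values, 506 of the 11533 genes tested there (4.39%) passed, but 0 higher and 0 lower proteasome genes (0 core, 0 regulatory) did. The medians there were 0.32 and 0.24, and signs turned for *Psma2* (0.23), *Psma4* (0.12), *Psmb10* (0.17), *Psmb3* (0.00739), *Psmc3* (0.38), *Psmd4* (0.10) and *Psmd8* (0.13). With the processed signals, 3 genes were higher and 3 core genes passed, as did 12.5% of all genes, and *Psmb10* (0.012) and *Psmc3* (0.071) turned. With the Cy5 channel alone, 3 genes were higher, 0 lower, 3 core and 0 regulatory genes passed, as did 8.01% of all genes, and *Psmc3* (0.072) turned. The *Psme4* probe at base 1428 stayed below 0 in these 4 settings but missed the adjusted threshold, at -0.12 (centring), -0.38 (deposited), -0.77 (processed) and -0.34 (Cy5 alone). The cause was not tested.

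With the mean of a gene's probes, *Psma4* (0.041) and *Psmc3* (0.17) turned, because the second probe enters. With array weights, 2 proteasome genes passed the adjusted threshold, as did 279 of all genes (31 without weights). In that setting 2 regulatory genes and 18.8% of all genes passed unadjusted P, and *Psmb6* turned (-0.085). The methods' t-test left 2 core genes, and called 1105 of all genes at its threshold and 9 after Benjamini-Hochberg. Leaving out slide 1 was an alternative chosen after seeing the data because its arrays were the dimmest. Without it, 2 regulatory genes, 3 genes around the proteasome and 14.0% of all genes passed, and *Psmb9* turned (0.010). The replicate block left 3 core genes, 2 regulatory genes and 13.0% of all genes past unadjusted P. The replicate numbers did not pair the samples, with correlations between -0.20 and 0.51, of which 3 of 12 were over 0.1.

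With single arrays left out, between 2 and 6 proteasome genes were higher, 1 and 3 lower, 2 and 5 of the core, 0 and 2 of the regulatory particle and 2 and 6 around the proteasome. The share of all genes past unadjusted P also changed with the array left out, and was lowest without Norm 3 and highest without Hypox 12. These ranges are thus not a property of the proteasome genes alone. The core median then lay between 0.05 and 0.10 and the regulatory median between -0.00077 and 0.05. Genes near 0 changed sign, with *Psmb10* between -0.094 and 0.013, *Psmb6* between -0.042 and 0.087, *Psmb9* between -0.078 and 0.0053 and *Psmc3* between -0.10 and 0.0017. *Psma6*, *Psma7* and *Psme4* kept an unadjusted P under 0.05 in all 24 of these fits. For dim probes such as *Psmb8* and *Psmb9*, the signal over background limits what can be seen.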
